A study of Rattus norvegicus with 6 samples.

Results

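RNA was sequenced from dorsal root ganglia of rats, which hold the cell bodies of sensory neurons. The genes described here come mostly from families that include the proteins that dock and fuse synaptic vesicles. They were taken by gene symbol: the synaptotagmins, synaptophysin, the synapsins, the SV2 proteins, the SNARE proteins of the VAMP, syntaxin and SNAP-25 families with the clathrin adaptor gene Snap91, the syntaxin binding proteins, the complexins, and the Rab3, Rims and Unc13 genes. A symbol had to be listed in at least 3 of the 6 deposited files, which gave 68 of the 14346 genes listed in any file. Of these, 65 were listed in all 6 files. Syt8 was listed in only 1 file and was left out, and Cplx4, Syt14, Syt16 and Vamp9 were listed in none.

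Sham-operated rats (3 libraries) were compared with rats given a partial sciatic nerve ligation, or pSNL (3 libraries), and both were sampled on day 7. In this injury a portion of the sciatic nerve is tied, so that cut and intact axons run in the same nerve. Each library held 4310643 to 4416121 estimated counts. The sources used here do not give strain, sex, age or the spinal level of the ganglia. They also do not say that the libraries came from separate animals, so the spread behind each p-value may be technical.

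A SNARE complex forms when a VAMP on the vesicle winds together with a syntaxin and a SNAP-25 protein on the target membrane and pulls both membranes into contact. Syntaxin binding proteins hold the syntaxin, Unc13 proteins open it, Rims and Rab3 proteins tether the vesicle at the release site, complexins clamp the partly wound complex, and a synaptotagmin triggers fusion when calcium binds. In sensory neurons these proteins are made in the ganglion and carried to the terminals in the spinal cord and the periphery. Other members of the same families serve traffic through the Golgi and endosomes in every cell type of the tissue.

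The labels were checked on 6 known injury genes and on marker lists. All 6 injury genes had a positive fold change in pSNL and 3 passed the threshold, and their summed level was 304 to 372 CPM in the sham libraries and 846 to 1599 CPM in the pSNL libraries (CPM, the count scaled to a common library size). The summed level of 12 markers of central glia was 2037 CPM in sham replicate 3 and 46.8 to 79.8 CPM in the other libraries, and that of 10 markers of central neurons was 257 CPM there and 31.9 to 41.9 CPM elsewhere. Slc32a1, the vesicular transporter of inhibitory central neurons, was at 60.9 CPM in sham replicate 3 and at 0 in the other 5 libraries. The 11 listed skeletal muscle markers summed to 574 CPM in sham replicate 3 and 1110 CPM in pSNL replicate 3, against 18.4 to 21.3 CPM in the others. Of 12 markers of sensory neurons, 10 were listed, and Pou4f1 and Prdm12 were not. The 10 summed to 12896 to 16686 CPM over the 6 libraries. That sum is led by Tubb3 and Prph and does not by itself establish the tissue label. Central neurons express most of the genes described here, so values are also given without sham replicate 3 where it stands apart. Schwann cell markers had positive estimates in 7 of 8 genes, with a median log2 fold change of 0.54, and their part in the lower CPM of members was not tested. In bulk tissue, fewer cells of a type and less RNA per cell cannot be told apart.

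The release genes covered a wide range of levels in the ganglion. Levels between genes were compared per length, as the authors' FPKM (a count scaled by gene length and library size) in the sham libraries. Snap25, the neuronal SNARE of the plasma membrane, was the most abundant at 1000 ± 73.8 FPKM (SD, n = 3) and ranked 51st among all listed genes. Vamp1, a synaptobrevin common in spinal cord, followed at 629 ± 48.6 FPKM and Cplx1, a complexin, at 607 ± 12.9 FPKM, which did not differ from each other beyond their spread. Synaptophysin (Syp), a membrane protein of small vesicles, was at 469 ± 13.2 FPKM, the vesicle GTPase Rab3a at 440 ± 13.9 and Vamp2 at 261 ± 8.87 FPKM. The 8 most abundant members held 73.4% of the summed FPKM of all 68.

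**Figure D1:**
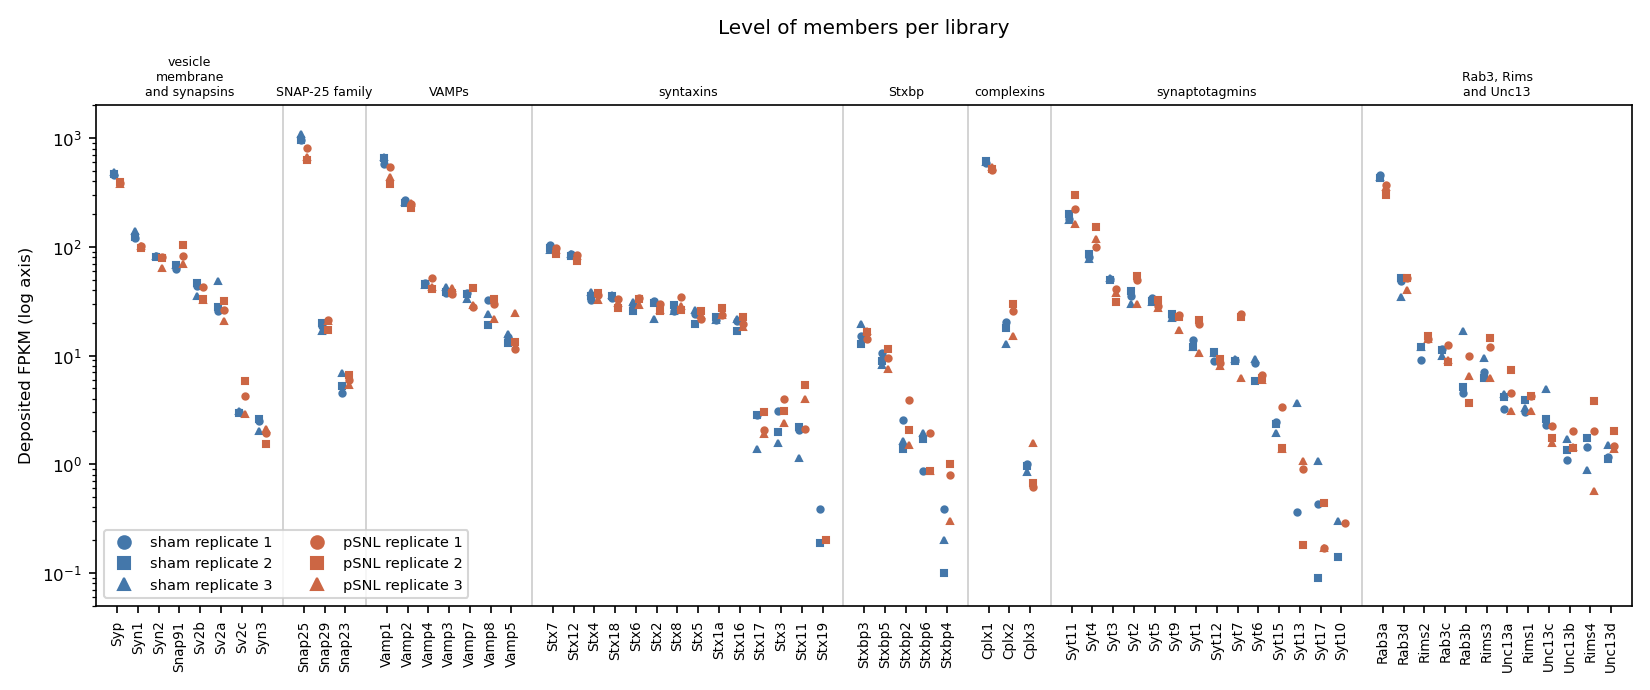
Deposited FPKM (log axis) of 66 members in the 3 sham and 3 pSNL libraries, grouped by role and ordered by sham level; points are single libraries and values of 0 are not drawn. In the SNAP-25 family and the complexins 1 gene stands far above the rest: Snap25 at 1000 FPKM against 18.5 for Snap29, and Cplx1 at 607 FPKM against 16.9 for Cplx2.

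In several role groups a single gene held most of the RNA. Snap25 made up 97.6% ± 0.204 of the FPKM of its family in sham, Cplx1 97.1% ± 0.637 of the complexins and Rab3a 81.8% ± 1.12 of the Rab3, Rims and Unc13 genes (SD, n = 3 each). The VAMPs were shared between Vamp1 (59.8% ± 2.76) and Vamp2 (24.9% ± 1.56). Among synaptotagmins the leading gene was Syt11, which does not act as a calcium sensor, at 186 ± 13.1 FPKM. It was followed by Syt4 at 81.3 ± 4.30, Syt3 at 50.6 ± 1.16, Syt2 at 34.8 ± 4.6 and Syt5 at 32.2 ± 1.38 FPKM, of which Syt2 and Syt5 lay within their spread. Syt1, the main calcium sensor of forebrain synapses, was at only 12.6 ± 1.12 FPKM. Among syntaxins the endosomal Stx7 was at 98.0 ± 5.06 and Stx12 at 85.0 ± 1.82 FPKM. Both stood above Stx4 (35.1 ± 2.93), Stx2 (27.9 ± 5.47) and Stx1a (21.7 ± 0.781 FPKM). In sham 9 members reached 100 FPKM, 33 lay between 10 and 100, 21 between 1 and 10, and 5 lay under 1 FPKM.

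After pSNL no member passed an adjusted p of 0.05, while several abundant release genes, Snap25, Vamp1 and Rab3a among them, stood lower in every pSNL library than in every sham library and Syt4 stood higher. Of the 68 members 61 had enough counts for the test. None was called in edgeR's quasi-likelihood test with Benjamini-Hochberg adjustment over 11091 genes, of which 0.46% were called (0.442% higher and 0.018% lower). At an unadjusted p under 0.05, 9 members were lower and 4 higher, where 6.07% and 9.41% of all tested genes met this. DESeq2, run as an alternative, gave an adjusted p for 62 members and called 6 lower (Snap25, Vamp1, Rab3a, Syn1, Syp and Syt3) and 1 higher (Syt4), against 2.89% of all genes (0.713% lower and 2.17% higher). The members were evenly split by sign, with 31 negative and 30 positive fold changes and a median log2 fold change of -0.0017, beside 50.6% negative and a median of -0.0024 over all tested genes.

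**Figure D2:**
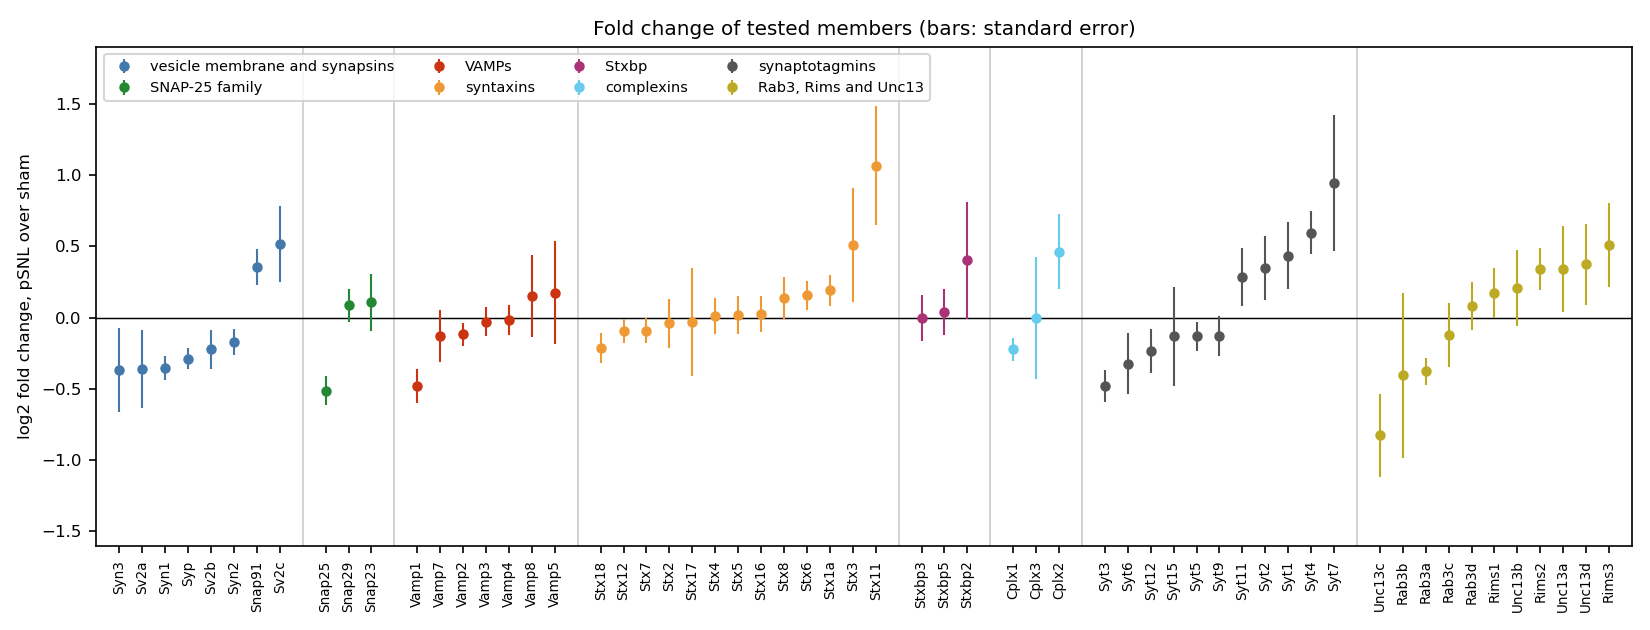
Log2 fold change of pSNL over sham (edgeR) for 59 tested members by role; points are estimates and bars are standard errors. Snap25 and Vamp1 lie near -0.5 and Syt4 at 0.60, and most syntaxins lie close to 0.

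The pSNL libraries lay wholly below the sham libraries for 13 of the 61 tested members and wholly above for 4, where 10.4% of all tested genes did the first and 11.1% the second. Of the 19 members at a mean of at least 100 CPM, a bound chosen after the data were seen, 10 lay wholly below and 2 wholly above. Among all genes at that level the shares were 18% and 11.5%. Of the 19, 14 had a negative fold change (73.7%), beside 58.9% of all genes at that level. Among the 10 were Snap25, Vamp1, Rab3a, Syn1, Syp, Cplx1, Syn2, Vamp2 and Stx12, and the other 3 of the 13 were Syt3, Stx18 and Unc13c. Without sham replicate 3, 12 of the 19 lay wholly below, beside 31.6% of all genes at that level. Over all tested members, the median log2 ratio of a library to the mean of sham was 0.022 in pSNL replicate 1, -0.0039 in replicate 2 and -0.19 in replicate 3.

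**Figure D3:**
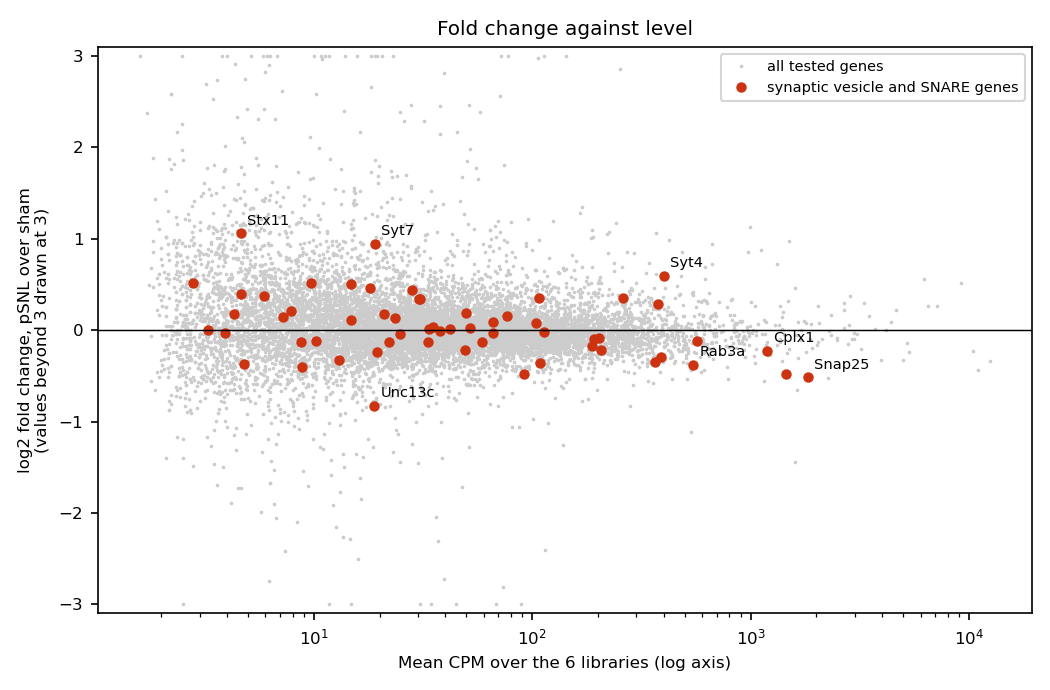
Log2 fold change against mean CPM (log axis) for all 11091 tested genes (grey) and 59 tested members (red), with fold changes beyond 3 drawn at 3. Members at the right edge, such as Snap25 and Cplx1, lie below 0, and those at low CPM lie on both sides.

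Across the 61 tested members, the log2 fold change and the sham FPKM had a Spearman correlation of -0.41, and across all 11091 tested genes of -0.24. Genes share libraries and are not independent replicates, and noise in the sham libraries enters both quantities, so this is a description only.

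Of the SNARE genes, Snap25 and Vamp1 stood lowest against sham. Snap25 (gene ID 25012) was at 2065, 2077 and 2299 CPM in sham replicates 1 to 3 and at 1701, 1351 and 1466 CPM in pSNL replicates 1 to 3. The groups did not overlap, and sham replicate 3 was the highest library. The log2 fold change was -0.51 ± 0.10 (SE), with edgeR adjusted p = 0.0639 and DESeq2 adjusted p = 6.065e-05. Without sham replicate 3 it was -0.46 (edgeR adjusted p = 0.0925). It passed without pSNL replicate 1 (-0.60, edgeR adjusted p = 0.0237), and over all alternatives edgeR's, limma's and DESeq2's adjusted p spanned 6.065e-05 to 0.244. The other family members, Snap23, a general plasma membrane SNARE, and Snap29, which acts in endosomes and autophagy, had log2 fold changes of 0.11 ± 0.20 and 0.09 ± 0.12.

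Vamp1 was at 1547, 1754 and 1752 CPM in sham and 1411, 1018 and 1193 CPM in pSNL. Each pSNL library was below each sham library, with pSNL replicate 1 closest to sham. The log2 fold change was -0.48 ± 0.12 (edgeR adjusted p = 0.104), -0.60 without pSNL replicate 1 (edgeR adjusted p = 0.0338) and -0.38 without pSNL replicate 2 (edgeR adjusted p = 0.311). Vamp2, the synaptobrevin of most central synapses, was at 617, 576 and 583 CPM in sham and 548, 514 and 576 CPM in pSNL, where the closest libraries of the groups were nearly equal (-0.12 ± 0.08). The share of Vamp1 in the FPKM of all VAMPs was 59.8% ± 2.76 in sham and 52.7% ± 4.04 in pSNL. The VAMPs of endosomes and lysosomes, Vamp3, Vamp4, Vamp7 and Vamp8, had log2 fold changes between -0.13 and 0.15 and overlapping groups. Vamp5, known as myobrevin for its expression in muscle, was at 3.18 to 4.37 CPM in 5 libraries and 6.88 CPM in pSNL replicate 3. That library also had the most muscle RNA, and the part of that in the value was not tested.

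Among the genes of vesicle proteins, Syn1, Syp and Syn2 had all pSNL libraries below all sham libraries. Syn1, a synapsin that tethers vesicles to the cytoskeleton, was at 390, 400.5 and 438 CPM in sham and 321, 309 and 332 CPM in pSNL. Syp was at 418, 427 and 433 CPM in sham and 346, 356 and 345 CPM in pSNL. In both genes the 3 libraries of each group lay close together and well apart from the other group. The log2 fold changes were -0.35 ± 0.08 for Syn1 and -0.29 ± 0.07 for Syp (edgeR adjusted p = 0.0861 and 0.108), and -0.31 and -0.28 without sham replicate 3. Syn2 was at 194 to 202 CPM in sham and 155 to 188 CPM in pSNL (-0.17 ± 0.09). Sv2a, the vesicle protein bound by levetiracetam, was at 93.3, 101 and 171 CPM in sham, so that its fold change of -0.36 ± 0.27 rested on sham replicate 3 and was -0.037 without it. Sv2b (-0.22 ± 0.14), Sv2c (0.52 ± 0.27) and Syn3 (-0.37 ± 0.29) had overlapping groups.

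Snap91 encodes AP180, the adaptor that helps clathrin retrieve vesicle membrane, and its estimate was positive. It was at 219, 235 and 231 CPM in sham and 277, 357 and 244 CPM in pSNL, all 3 above sham. The log2 fold change was 0.36 ± 0.13 (edgeR adjusted p = 0.229), and 0.18 without pSNL replicate 2.

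Among the regulators of fusion, Cplx1 was at 1268, 1322 and 1265 CPM in sham and 1059, 1087 and 1157 CPM in pSNL. The groups did not overlap. The log2 fold change was -0.22 ± 0.08 (edgeR adjusted p = 0.232). Cplx2, the other neuronal complexin, was at 11.3 to 18.3 CPM in sham and 13.8 to 26.6 CPM in pSNL (0.46 ± 0.26). Cplx3 was at 2.04 to 5.50 CPM over all libraries. Stxbp2 (0.40 ± 0.41), Stxbp3 (-0.0046 ± 0.16) and Stxbp5 (0.04 ± 0.16), the last encoding tomosyn, a SNARE inhibitor, had overlapping groups.

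**Figure D4:**
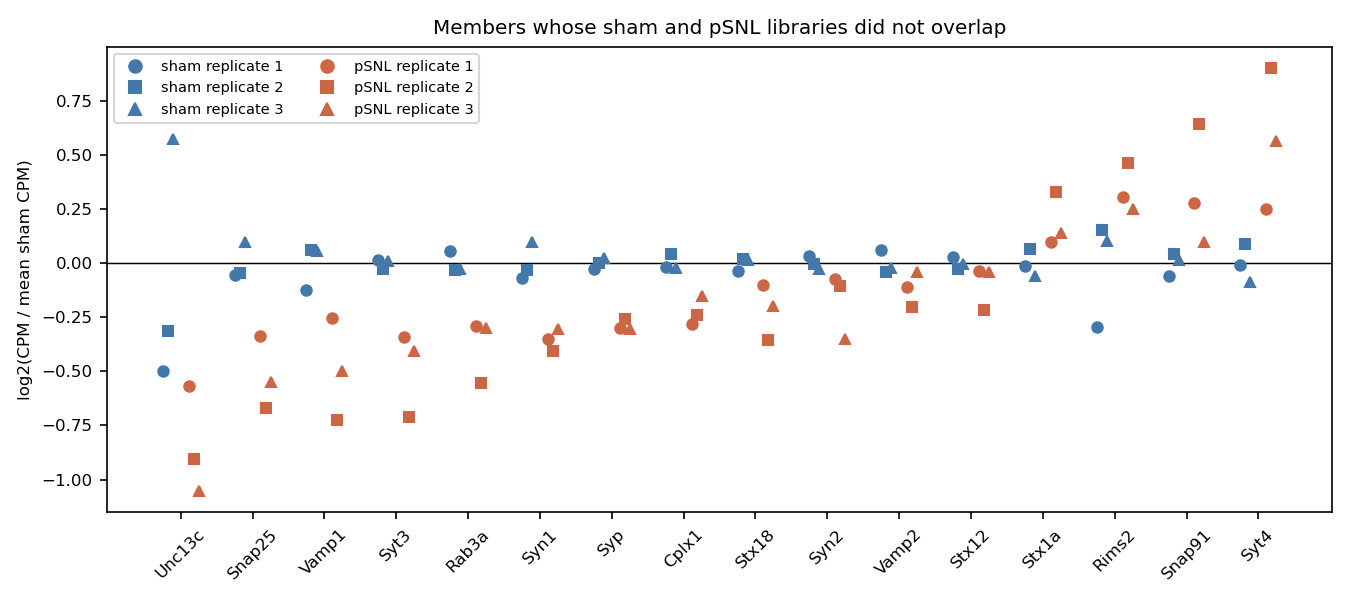
Log2 ratio of each library's CPM to the mean sham CPM for 16 members whose sham (blue) and pSNL (orange) libraries did not overlap; each point is 1 library and its shape gives the replicate. From Snap25 to Stx12 all pSNL points lie below sham, from Stx1a to Syt4 above, and Unc13c has a single high point in sham replicate 3.

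Rab3a was at 642, 603 and 606 CPM in sham and 504, 421 and 500 CPM in pSNL, with no overlap. Its log2 fold change was -0.38 ± 0.09 (edgeR adjusted p = 0.0976). Of its paralogs, Rab3d, found in secretory cells, was at 76.3 to 117 CPM in sham and 90.4 to 116 CPM in pSNL (0.08 ± 0.17), and Rab3c was at 8.55 to 12.0 CPM over all libraries. Rab3b was at 5.27 and 5.97 CPM in sham replicates 1 and 2 and 19.1 CPM in sham replicate 3, and its log2 fold change turned from -0.40 to 0.43 without that library. Rab3b and Unc13c were the 2 tested members (3.28%) at least 1.5-fold above all other libraries in sham replicate 3, where 2.81% of all tested genes were. That library had the high central tissue markers, and their part in these values was not tested.

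At the release site, the Rims and Unc13 genes were low, at 1.26 to 11.03 FPKM in sham. Rims2, a scaffold that joins Rab3 to calcium channels, was at 22.0, 30.1 and 28.95 CPM in sham and 33.4, 37.2 and 32.1 CPM in pSNL. The groups did not overlap, and the log2 fold change was 0.34 ± 0.15 (edgeR adjusted p = 0.313). Unc13c was at 17.2, 19.5 and 36.1 CPM in sham and 16.3, 12.9 and 11.7 CPM in pSNL. Its log2 fold change of -0.83 ± 0.29 (edgeR adjusted p = 0.232) was -0.43 without sham replicate 3. Rims1 (0.17 ± 0.17), Rims3 (0.51 ± 0.30), Unc13a (0.34 ± 0.30), Unc13b (0.21 ± 0.27) and Unc13d (0.37 ± 0.29) all had positive estimates with overlapping groups.

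Synaptotagmins differed in both directions. Syt4, found on dense core vesicles and the Golgi, was at 318, 341 and 301 CPM in sham and 381, 598 and 473 CPM in pSNL. All 3 pSNL libraries were above sham, most of all pSNL replicate 2. The log2 fold change was 0.60 ± 0.15, a 1.51-fold estimate (edgeR adjusted p = 0.116), 0.75 without pSNL replicate 1 (edgeR adjusted p = 0.0149) and 0.41 without pSNL replicate 2 (edgeR adjusted p = 0.280). Syt3, a high affinity calcium sensor, was at 108, 105 and 108 CPM in sham and 84.2, 65.2 and 80.5 CPM in pSNL. The sham libraries were nearly equal, and the log2 fold change was -0.48 ± 0.11 (edgeR adjusted p = 0.0861). In the synaptotagmin FPKM, the share of Syt4 was 18% ± 0.233 in sham and 23.3% ± 4.67 in pSNL, and that of Syt3 was 11.2% ± 0.694 and 7.10% ± 2.11.

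Syt7, the slow calcium sensor of sustained release and of lysosome fusion, had pSNL libraries on both sides of sham. It was at 13.1, 12.9 and 13.1 CPM in sham and at 34.1, 32.4 and 8.94 CPM in pSNL replicates 1 to 3. Replicates 1 and 2 were far above sham and replicate 3 below it. The log2 fold change was 0.95 ± 0.48 (edgeR adjusted p = 0.409). It was 1.35 (edgeR adjusted p = 0.0134) without pSNL replicate 3, but that fit leaves out the library that lay below sham and cannot stand as support. With 1 library left out the estimate spanned 0.67 to 1.35. Over all alternatives edgeR's, limma's and DESeq2's adjusted p for Syt7 spanned 0.0134 to 0.721. Syt1 was at 22.3 to 26.6 CPM in sham and 36.6, 40.2 and 20.4 CPM in pSNL, and Syt2, the fast sensor of large and spinal neurons, at 79.7 to 106 CPM and 133, 147 and 80.7 CPM. The edgeR log2 fold changes were 0.44 ± 0.23 and 0.35 ± 0.23. Syt11 was at 316 to 367 CPM in sham and 402, 538 and 297 CPM in pSNL. Syt5, Syt6, Syt9, Syt12 and Syt15 had log2 fold changes between -0.32 and -0.13 with overlapping groups.

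That division was shared by other members. For 12 of the 61 (19.7%), pSNL replicates 1 and 2 lay above every sham library and replicate 3 did not, where 8.54% of all tested genes had that order. For 7 of them (11.5%), replicate 3 lay below every sham library, beside 3.15% of all tested genes. Among the 12 were Syt1, Syt2, Syt7, Syt11, Stx3, Stx6, Cplx2, Sv2c, Unc13a, Rims1 and Rims3. With the same order but replicate 1 or replicate 2 as the exception there was 1 member each (1.64%), beside 6.06% and 3.40% of all tested genes. This pattern was looked for after the values had been seen. In pSNL replicate 3 the summed level of 8 Schwann cell markers was 25325 CPM against 16408 and 19857 CPM in the other pSNL libraries and 11248 to 16763 CPM in sham, and that of the muscle markers was 1110 CPM against 19.98 and 20.34 CPM. The part of these in the pattern was not tested.

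**Figure D5:**
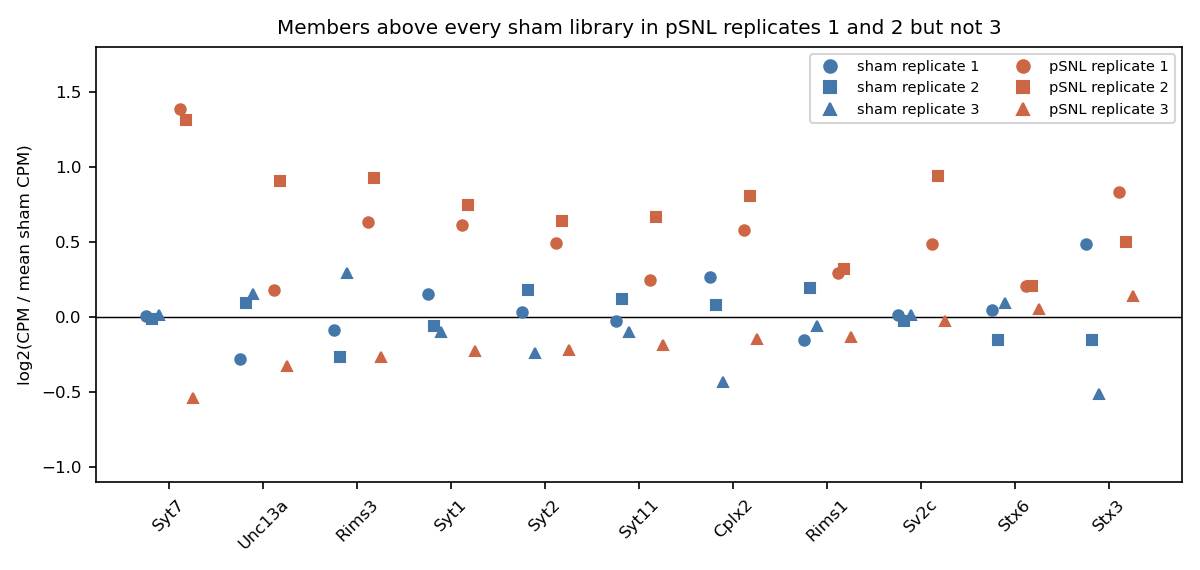
Log2 ratio of each library's CPM to the mean sham CPM for 11 members above every sham library in pSNL replicates 1 and 2 but not in replicate 3; blue is sham, orange is pSNL, and shape gives the replicate. Syt7 shows the widest gap between pSNL libraries, and its pSNL replicate 3 triangle lies well below all sham points.

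Of the 14 tested syntaxins, 11 had a log2 fold change within 0.2 of 0, as did 6487 of all 11091 tested genes, and their median was 0.021. Stx1a, a plasma membrane partner of Snap25, was at 44.6 to 48.7 CPM in sham and 49.7, 58.3 and 51.1 CPM in pSNL, all 3 above sham (0.19 ± 0.11). Stx12 was at 195 to 202 CPM in sham and 171 to 193 CPM in pSNL, and Stx18, of the endoplasmic reticulum, at 51.8 to 53.9 CPM and 41.6 to 49.5 CPM. Neither had an unadjusted p under 0.05, and Stx7, at 194 to 220 CPM in sham and 182 to 204 CPM in pSNL, overlapped. Stx11, a syntaxin of immune cells, was at 3.44, 3.67 and 1.84 CPM in sham and 3.41, 8.78 and 6.65 CPM in pSNL. Its log2 fold change was the highest of the tested members, 1.07 ± 0.42 (edgeR adjusted p = 0.263), with overlap. That rank rested on sham replicate 3, the lowest library. Without it Stx11 was at 0.81 (edgeR adjusted p = 0.418), below Syt7 at 0.95. Beside Stx11, 12 macrophage markers summed to 188 to 247 CPM in sham and 322, 541 and 548 CPM in pSNL, and their part in its value was not tested.

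The 7 members that were not tested were at the edge of detection. Summed over each group, Syt10 had 3 counts in sham and 2 in pSNL, and Stx19 had 3 and 1. Stxbp4 had 7 and 21 counts, Rims4 14 and 22, Stxbp6 26 and 21, and Syt17 18 and 9. Syt13 had 22 and 12 counts, and 20 of the 22 came from sham replicate 3.

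Control regions were set beside members that stood lower. RefSeq (build GRCr8) gave a region before the start site for 53 of the 68 members. Snap25, the most abundant member, was not among those matched, so no region is printed for it. The 250 bases before the start are printed for the members that DESeq2 called lower and that were matched, to set the regions of genes that stood lower in the same libraries side by side. Each is written 5′ to 3′ on the strand of the gene. The sources used here do not name the build behind the deposited files. Capitals mark matches on either strand to TGACGTCA (cyclic AMP response element, CRE), TGANTCA (AP-1), GCGNGGGCG (EGR), GGGCGG (GC box) and CCAAT. The EGR and GC box letters can overlap.
Vamp1 (chr4:159698644-159698893, plus strand): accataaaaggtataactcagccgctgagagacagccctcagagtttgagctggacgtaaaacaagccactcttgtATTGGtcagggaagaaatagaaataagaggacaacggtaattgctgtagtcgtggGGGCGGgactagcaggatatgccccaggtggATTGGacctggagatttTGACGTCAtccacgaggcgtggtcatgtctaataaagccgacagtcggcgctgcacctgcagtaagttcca
Syn1 (chrX:3725495-3725744, plus strand): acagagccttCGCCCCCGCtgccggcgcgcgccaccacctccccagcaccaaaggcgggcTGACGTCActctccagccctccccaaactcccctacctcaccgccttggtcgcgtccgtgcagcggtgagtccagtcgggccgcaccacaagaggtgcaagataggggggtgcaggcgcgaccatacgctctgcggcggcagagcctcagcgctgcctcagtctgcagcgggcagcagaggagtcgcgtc
Syp (chrX:17536450-17536699, minus strand): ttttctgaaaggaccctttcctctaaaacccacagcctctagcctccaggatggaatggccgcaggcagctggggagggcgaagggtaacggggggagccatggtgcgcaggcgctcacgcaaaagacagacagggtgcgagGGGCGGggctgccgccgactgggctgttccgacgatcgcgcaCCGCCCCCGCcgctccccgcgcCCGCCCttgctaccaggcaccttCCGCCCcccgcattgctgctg
Rab3a (chr16:18722274-18722523, minus strand): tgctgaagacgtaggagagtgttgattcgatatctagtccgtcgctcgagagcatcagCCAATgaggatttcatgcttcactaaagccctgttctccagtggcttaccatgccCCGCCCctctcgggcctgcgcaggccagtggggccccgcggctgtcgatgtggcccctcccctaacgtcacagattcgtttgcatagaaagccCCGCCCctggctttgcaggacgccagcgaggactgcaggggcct
Syt3 (chr1:104017874-104018123, plus strand): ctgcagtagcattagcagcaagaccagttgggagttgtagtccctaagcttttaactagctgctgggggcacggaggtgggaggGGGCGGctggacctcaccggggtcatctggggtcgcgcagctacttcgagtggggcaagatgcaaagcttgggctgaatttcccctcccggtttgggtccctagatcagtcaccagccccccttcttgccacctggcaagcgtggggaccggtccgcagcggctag
The CRE letters were found 71 bases before the start in Vamp1 and 190 bases before it in Syn1. These were the only members among 54 matched regions (3.7%) with this motif, which was in 1.59% of all 33469 regions of that length. GC boxes were found in 36 of the 54 regions (66.7%, against 30.5% of all regions), EGR letters in 10 (18.5%, against 4.29%), and CCAAT in 17 (31.5%, against 34%). All regions were counted without selection by expression in the ganglion. Shares over expressed genes alone were not computed, so these differences cannot be read as particular to the members. No member region held the AP-1 letters, which were in 6.34% of all regions. Syp held 4 GC box matches and 1 EGR match, Rab3a 2 GC boxes and 1 CCAAT, and Syt3 1 GC box. A match is a string of letters in this window and does not show that a factor binds there.

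Other genes of the vesicle cycle were read from a list of 87 outside the rule, of which 80 were listed in the files and 72 tested. None passed an adjusted p of 0.05 in edgeR's test, and 13 were lower and 6 higher at an unadjusted p under 0.05, where 6.07% and 9.41% of all tested genes were. DESeq2 called 3, all lower (Amph, Atp6v1a and Rph3a), beside 2.89% of all genes. The pSNL libraries lay wholly below sham for 16 of the 72 and wholly above for 6, beside the 10.4% and 11.1% of all tested genes. Amph, the amphiphysin that recruits dynamin, was at 156, 151 and 148 CPM in sham and 124, 111 and 101 CPM in pSNL. Scamp5, a vesicle membrane protein, was at 92.1, 95.5 and 92.6 CPM in sham and 66.1, 75.6 and 67.4 CPM in pSNL. Neither overlapped, and the log2 fold changes were -0.44 ± 0.10 and -0.42 ± 0.09 (edgeR adjusted p = 0.0792 and 0.082).

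Rph3a, the Rab3 effector rabphilin, was at 372 to 384 CPM in sham and 236 to 317 CPM in pSNL (-0.39 ± 0.11), and Atp6v1a, a subunit of the proton pump that powers vesicle filling, at 358 to 407 CPM and 269 to 330 CPM (-0.36 ± 0.10). Doc2a, a calcium sensor of spontaneous release, was at 32.1 to 40.0 CPM in sham and 20.6 to 31.3 CPM in pSNL (-0.56 ± 0.17). In all 3 the groups did not overlap, and edgeR's adjusted p lay between 0.123 and 0.16.

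General markers of sensory neurons did not share one direction. Of 10 tested, 5 were lower and 5 higher by estimate, and the median log2 fold change was -0.018. Their summed level was 15365, 15681 and 12896 CPM in sham and 15419, 16050 and 16686 CPM in pSNL. The summed CPM of all 68 members was 11347, 11736 and 11727 in sham and 10508, 9981 and 9639 in pSNL. The marker sums overlapped between the groups and the member sums did not. Each sum is weighted by its most abundant genes. The member sum is led by Snap25 and Vamp1, at 2147 and 1684 CPM in sham and 1506 and 1208 CPM in pSNL. Of the 61 tested members, 30 had a positive fold change, so the member sum does not describe most members. The marker list is led by Tubb3 and Prph, at 5902 and 3295 CPM in sham, and the difference between the lists was not tested.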

How the data were processed

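Per the labels, Trizol RNA from frozen ganglia (1 µg) went into BGIseq500 kit libraries. CASAVA 1.4 and Bowtie2 are named in the submitters' processing notes. The sources used here name no quantifier, build, annotation or strand setting, so reads of overlapping genes cannot be told apart. The deposited files give expected counts per gene and, per the file headers, FPKM made by the authors; genes that a file does not list were set to 0. Of the members, 6 had fractional counts, so some reads may have been split between genes or transcripts. Symbols came from RefSeq (GRCr8, names only): 14227 genes matched by gene ID, 16 by accession and 103 stayed unmatched.

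Expected counts were rounded and fitted with edgeR 4.0.16 in R 4.3.3 (TMM, default low-count filter, robust quasi-likelihood F test, Benjamini-Hochberg over 11091 genes). Standard errors came from the test statistic. DESeq2 1.42.0 and limma 3.58.1 on log2(FPKM + 1) or log2(FPKM + 0.1) were alternatives. The fit was tested on simulated data. Depth was 4.31 to 4.42 counts per CPM, so low genes rest on few counts. No molecular identifiers are named. Replicate numbers were not taken as pairs. Within groups, library pairs differed beyond counting noise (chi-square per degree of freedom 2.97 to 14.6) and all 6 were kept.

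Members and lists were chosen with earlier results of these data known. Named were, in each role, up to 6 members with the smallest unadjusted p under 0.05 and the 2 with the highest FPKM, and of the related genes the 6 with the smallest p; other members named were chosen after their values were seen. A few genes are counted in totals but not reported here by name or drawn.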

Additional observations from a re-analysis of the deposited data

How the results depend on the processing

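No member and no related gene was called with RLE size factors, library size only, a filter at 10 CPM or the non-robust fit in edgeR, or with limma on FPKM. Members called numbered 1 with no low-count filter, 7 with DESeq2, 1 without both replicate 3 libraries, and 0 to 3 with 1 library left out (3 without pSNL replicate 1, namely Snap25, Vamp1 and Syt4, and 1 without pSNL replicate 3, Syt7). Related genes called numbered 3 with DESeq2 and 0 to 1 with 1 library left out. Genes called over the whole table were 51 in the reported fit, 89 with no filter, 332 with DESeq2, 102 without both replicate 3 libraries and 5 to 217 with 1 library left out. A fit with the replicate number as a block called 111 genes, 0 members and 0 related genes; the labels do not say that the numbers pair the libraries. Deviations of same-numbered libraries correlated at 0.032, 0.011 and 0.12, and the replicate 3 libraries alone correlated best with their own number. The median log2 fold change of members lay between -0.038 and 0.025 with 1 library left out.

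Members lying wholly below sham numbered 14 to 18 of 61 with 1 library left out, beside 13.8% to 17.0% of all tested genes, and members wholly above 5 to 16, beside 14.5% to 19.6%, with 8 without sham replicate 3 and 16 without pSNL replicate 3. This check was chosen after seeing the data, and with fewer libraries the groups overlap less by construction. Of 431 values for the 27 genes picked by smallest p or highest FPKM, 422 kept their sign. That choice favours stable signs. Several other members reported here changed sign between settings. Among them were Rab3b (-0.78 to 0.44), Sv2a (-0.53 to 0.11), Unc13a (-0.059 to 0.67) and Stxbp5 (-0.12 to 0.16). Others did not, such as Sv2b (-0.34 to -0.13). Of the 27, 3 genes turned. Snap29 turned to -0.039 without both replicate 3 libraries and Rab3d to -0.086 without sham replicate 3. Stxbp3, near 0 throughout, turned to 0.00012 with the 10 CPM filter, 0.0067 with the replicate block, 0.16 without sham replicate 3, 0.083 without pSNL replicate 1, 0.11 without both replicate 3 libraries, and 0.013 and 0.015 with limma at pseudocounts of 1 and 0.1; the cause was not tested. With 1 library left out, Stxbp3 spanned -0.14 to 0.16 and Rab3d -0.086 to 0.2. Counts per library were few for some Unc13 and syntaxin genes, at 25 to 45 for Unc13b and 7 to 18 for Stx3. They were higher for Unc13a, at 93 to 217, and for Rims2, at 96 to 161. The part of depth in the spread of these genes was not tested.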
